A study of Eohaustorius estuarius with 16 samples.

Results

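The block described here is a run of custom probes with successive numbers in 1 of the probe sets of an amphipod array. It takes in every probe listed between numbers 4088 and 4142, both left out, from the probe of contig 7511 to that of contig 436. The range spans 51 numbers, of which the array listed 26, each for a different contig, out of 8507 probes in all. The block was chosen by its cyfluthrin against control differences and its co-variation in these same arrays, so those measures are given below as a description. Errors, intervals and counts past limma's threshold for that contrast are printed only to describe the values, and are no independent evidence of a difference. A contig is a stretch of transcript put together from overlapping sequence reads, and probe and contig are used here for the same feature. The files pair no contig with a gene name or a function, so the contigs are called by number and no role is given to them.

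The animals were Eohaustorius estuarius, a small burrowing crustacean of estuarine sand that is widely used in sediment toxicity tests. The 8 exposed samples (cyfluthrin 1 to 8) came from animals that spent 10 days in cyfluthrin-dosed sediment, with a nominal content of 1.6 micrograms per kilogram. The 8 control samples (control 1 to 8) came from animals that spent 10 days in sediment dosed with the solvent. RNA was taken from whole bodies in laboratory B, labelled with Cy3 and hybridised to 1-colour Agilent arrays, 1 sample to an array. The labels do not say that samples of a group came from separate aquaria, nor how many animals made up a sample, so p-values below measure only the spread between these samples, which may be technical. Because the RNA was from whole bodies, fewer cells of a type and less RNA per cell cannot be told apart.

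Cyfluthrin is a pyrethroid insecticide. Pyrethroids hold voltage-gated sodium channels of nerve cells open for longer than normal, which leads to repeated firing and paralysis in insects and crustaceans. Arthropods are known to clear pyrethroids with esterases, cytochrome P450 enzymes and glutathione transferases, and which of these contigs, if any, codes for such an enzyme is not known from the files.

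On the 16 arrays, 76.0% to 86.2% of probes were well above background. Each array was scaled to its 75th percentile of processed intensity, which ran from 421 to 680 in control arrays and from 485 to 1011 in cyfluthrin arrays. A level is the mean log2 processed intensity of a contig's spots less that percentile in log2, so a level of 0 is the brightness of the 75th percentile. Brightness also depends on how well a probe binds, and levels of different contigs are not set against each other. Of the 26 contigs, 25 passed the filter on dim probes. Contig 7070 (probe 4111) was well above background on 0 of 8 cyfluthrin arrays and 0 of 8 control arrays, so no fold is given for it. In 20 of the 26, both spots were well above background on all 16 arrays. No spot of the block was saturated or marked as an outlier on any array.

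A run of 3 contigs next to each other was brighter in cyfluthrin arrays, and 7 others were dimmer. In limma across the whole array, with Benjamini-Hochberg adjustment and a threshold of 0.05, 3 of the 25 tested contigs were past the threshold and higher, where the share over all 7245 tested probes was 1.42%. Another 7 were past it and lower, contig 6259 near the background among them, where the share over all tested probes was 3.55%. All 8 cyfluthrin arrays lay above all 8 control arrays for 3 contigs (0.304% of all tested probes) and below them for 5 (0.676% of all tested probes). Since the block was chosen by this contrast, nothing is read from these counts. The median log2 change was -0.345 over the 25 contigs and -0.0562 over all tested probes, and the median size of change was 0.398 and 0.265 in the same order.

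**Figure D1:**
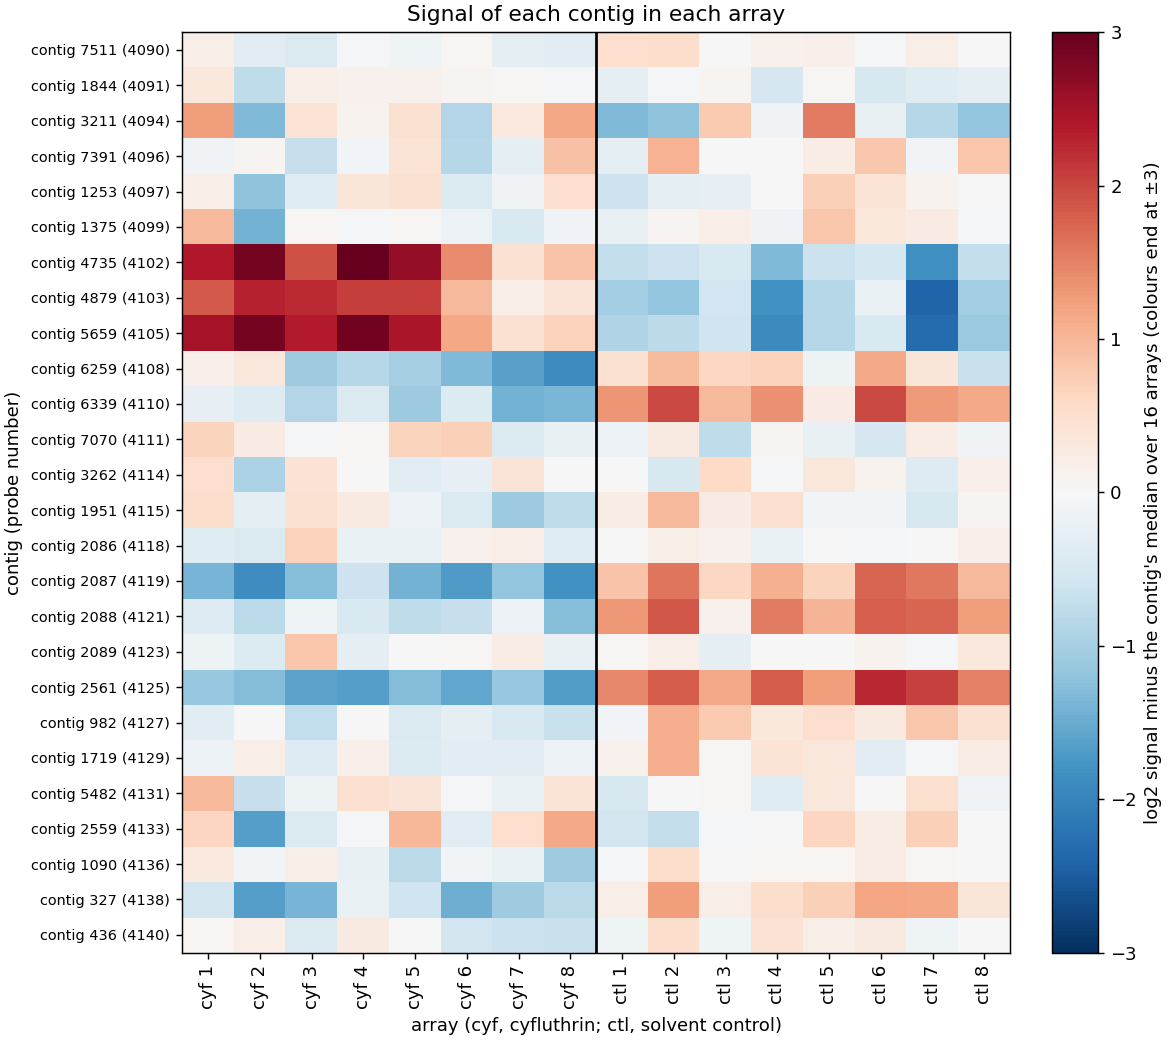
Signal of the 26 contigs (rows, in order of probe number) in the 8 cyfluthrin and 8 control arrays (columns), as log2 signal minus the contig's median over 16 arrays. Contigs 4735, 4879 and 5659 are red in cyfluthrin arrays and blue in control arrays, contigs 6339, 2087, 2088, 2561 and 327 show the opposite, and most other rows are pale in both groups.

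Contigs 4735, 4879 and 5659 (probes 4102, 4103 and 4105) are consecutive entries of the list and were higher in every cyfluthrin array than in any control array. Contig 4735 had a lowest, median and highest level of -0.27, 1.42 and 2.36 in cyfluthrin arrays, against -2.58, -1.42 and -1.20 in control arrays. Its means were 1.22 ± 0.96 in cyfluthrin and -1.59 ± 0.48 in control arrays (SD, n = 8 each), a log2 change of 2.82 ± 0.36 (SE) or 7.04-fold. The groups did not overlap, and the gap between the lowest cyfluthrin array and the highest control array was 0.935.

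Contig 5659 had levels of -1.58, 0.38 and 0.87 (lowest, median, highest) in cyfluthrin arrays, against -4.34, -2.91 and -2.48 in control arrays. Its log2 change was 3.04 ± 0.39 (SE), or 8.22-fold, and its groups were 0.90 apart. That size depended on the processing. Its unscaled processed intensity was 27 to 111 in control arrays. With normexp on median intensities, another background correction, run with an offset of 50, its log2 change was 2.15. Contigs 4735 and 4879 had 2.41 and 2.44 there, so contig 5659 then had the smallest change of the 3. Contig 4879 had levels of 0.84, 2.59 and 2.94 in cyfluthrin arrays, against -1.76, -0.40 and 0.43 in control arrays, a log2 change of 2.65 ± 0.36 (SE) or 6.27-fold. Its gap between the groups was the smallest of the 3, at 0.419.

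The 3 contigs ordered the arrays in much the same way. Cyfluthrin 6, 7 and 8 were the lowest exposed arrays for each, at 0.69, -0.27 and 0.12 for contig 4735, at 1.61, 0.84 and 1.03 for contig 4879 and at -0.86, -1.58 and -1.34 for contig 5659. Controls 4 and 7 were the lowest control arrays for each. Even so, the lowest exposed array stayed above the highest control array for all 3.

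Of the 7 contigs past the threshold and lower in cyfluthrin arrays, contig 2561 (probe 4125) had the widest separation. Its levels were -0.69, -0.43 and -0.13 (lowest, median, highest) in cyfluthrin arrays, against 2.12, 2.65 and 3.25 in control arrays. Its means were -0.42 ± 0.23 and 2.65 ± 0.39 (SD, n = 8 each), a log2 change of -3.07 ± 0.16 (SE), or 8.42-fold lower. Every cyfluthrin array was well below every control array, with a gap of 2.26, and the unscaled processed intensity was 309 to 823 in cyfluthrin arrays, against 2533 to 5598 in control arrays.

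Contigs 2087 and 2088 (probes 4119 and 4121) are neighbours in both numberings. Contig 2087 had levels of -1.67, -1.20 and -0.43 in cyfluthrin arrays, against 0.83, 1.22 and 1.94 in control arrays, and a log2 change of -2.55 ± 0.21 (SE), or 5.87-fold lower. Contig 2088 had levels of -3.12, -2.40 and -1.96 in cyfluthrin arrays, against -1.70, -0.41 and 0.04 in control arrays, and a log2 change of -1.92 ± 0.23 (SE), or 3.79-fold lower. Neither overlapped between the groups, although control 3, the lowest control array for contig 2088, came within 0.263 of the highest cyfluthrin array.

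Contigs 6339 (probe 4110) and 327 (probe 4138) also separated the groups. Contig 6339 had levels of -3.67, -2.90 and -2.50 in cyfluthrin arrays, against -2.00, -0.95 and -0.27 in control arrays, and a log2 change of -2.07 ± 0.25 (SE), or 4.20-fold lower. Contig 327 had levels of -0.33, 0.39 and 1.14 in cyfluthrin arrays, against 1.53, 1.96 and 2.59 in control arrays, and a log2 change of -1.66 ± 0.23 (SE), or 3.17-fold lower. The gaps between the groups were 0.496 for contig 6339 and 0.388 for contig 327.

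The groups overlapped for the remaining pair of lower contigs. Contig 982 (probe 4127) had levels of 1.68, 2.02 and 2.43 in cyfluthrin arrays, against 2.34, 2.89 and 3.50 in control arrays, and a log2 change of -0.89 ± 0.17 (SE), or 1.85-fold lower. Contig 6259 (probe 4108) was near the background: it was well above it on 1 of 8 cyfluthrin arrays and 6 of 8 control arrays, and so passed the filter only through the control arrays. Its levels were -7.35, -6.50 and -5.12 in cyfluthrin arrays, against -6.13, -4.92 and -4.32 in control arrays, a log2 change of -1.33 ± 0.33 (SE). No fold is given, since 7 of its 8 cyfluthrin values were not well above background. That change was -0.45 with normexp on median intensities. The unscaled processed intensity of contig 6259 was 4.8 to 29, below the normexp offset of 50, which by itself makes such a change smaller. The change was not past the threshold without any 1 of 6 arrays (controls 2, 6 and 7 and cyfluthrin 5, 7 and 8).

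**Figure D2:**
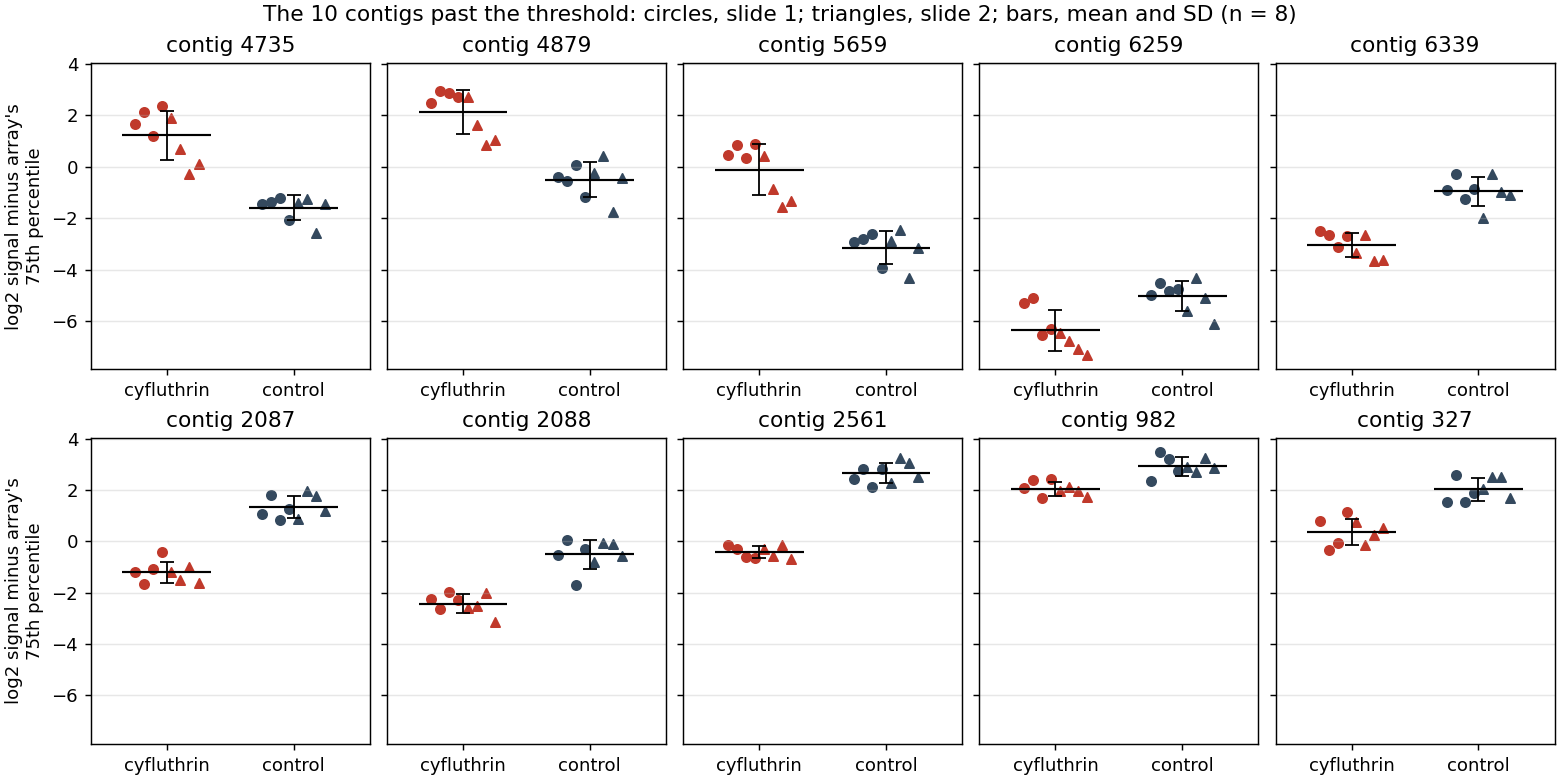
Levels of the 10 contigs past the threshold in each of the 8 cyfluthrin (red) and 8 control (dark) arrays, as log2 signal minus the array's 75th percentile, with circles for slide 1, triangles for slide 2 and black bars for mean and SD. The groups overlap for contigs 6259 and 982 and are apart for the other 8, and the 3 lowest exposed arrays for contigs 4735, 4879 and 5659 are all of slide 2.

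The other 15 tested contigs lay among these without a difference past the threshold. Their log2 changes ran from -0.41 (contig 1719) to 0.50 (contig 3211), with 11 below 0 and 4 above. Contig 3211 was near the background, being well above it on 4 cyfluthrin and 2 control arrays. It passed the filter only through the cyfluthrin arrays, so no fold is given for it. Contig 3211 had levels of -7.04, -5.36 and -4.46 in cyfluthrin arrays, against -7.04, -6.24 and -4.15 in control arrays, and its log2 change turned negative (-0.155) with normexp. It had the largest spread within groups of the block (pooled SD 0.976), and its groups covered much the same range.

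Some contigs not past the threshold sat beside contigs that were. Contigs 2086 and 2089 flank contigs 2087 and 2088 in the contig numbering. Contig 2086 averaged 3.23 ± 0.39 in cyfluthrin arrays and 3.33 ± 0.12 in control arrays (SD, n = 8 each), a log2 change of -0.10. Contig 2089 averaged 1.65 ± 0.39 in cyfluthrin arrays and 1.69 ± 0.17 in control arrays, a log2 change of -0.04. Both had a larger spread in the exposed arrays, with variances 10.3 and 4.85 times those of the controls. Cyfluthrin 3 was the highest exposed array for both, and without it the ratios were 4.30 and 1.49.

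Contig 2559 (probe 4133) had levels of -1.45, 0.43 and 1.34 in cyfluthrin arrays, against -0.51, 0.21 and 0.92 in control arrays, and a log2 change of 0.07. Contig 1253 (probe 4097), with a mean level of 3.77, had 2.60, 3.85 and 4.30 in cyfluthrin arrays, against 3.18, 3.80 and 4.52 in control arrays. Cyfluthrin 2 was the lowest exposed array for both, as it was for 11 of the 25 tested contigs. Contigs 7511, 1844, 7391, 1375, 3262, 1951, 1719, 5482, 1090 and 436, the others not past the threshold, differed by 1.33-fold or less.

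Spread within groups was larger in cyfluthrin arrays for most of the block, as over the array. The variance in cyfluthrin arrays exceeded that in control arrays for 18 of the 25 contigs, with a median ratio of 1.81, where the median over all tested probes was 1.72 and 72.9% of them were over 1. It did so for 5 of the 10 contigs past the threshold and for 13 of the other 15. The ratios ran from 0.325 (contig 1719) to 10.3 (contig 2086, or 4.30 without cyfluthrin 3), and contigs 2561 and 2088, both lower in cyfluthrin arrays, were steadier there, with ratios of 0.349 and 0.455.

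Each contig had 2 spots on the array, and these lay apart, over rows 1 to 189 of 192. For the 10 contigs past the threshold, the levels of the 2 spots correlated over the 16 arrays at 0.820 (contig 6259) or more, and their log2 changes differed by at most 0.324 (contig 2088). The 2 spots correlated below 0.8 for 4 contigs, at 0.714 for contig 7511, 0.680 for contig 3211, -0.153 for contig 7391 and 0.430 for contig 7070. Values of these 4, none past the threshold, rest on spots that ranked the arrays less alike. The difference between groups was left in these correlations, which raises them for contigs with a large change. They therefore cannot tell whether spots of the 10 contigs past the threshold agreed better than spots of the 4. The SD between the 2 spots was the largest of the block for contig 6259, at 0.387.

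The edges of the block were set by probe number and not by a jump in the values. Just inside its lower end, contigs 7511 and 1844 (probe 4091) had log2 changes of -0.35 and 0.24. Just outside it, contig 924 (probe 4088) had 0.16, and contig 3215 (probe 4085) averaged 1.45 ± 1.39 in cyfluthrin arrays and -0.01 ± 1.88 in control arrays (SD, n = 8 each). At the upper end, contigs 327 (probe 4138) and 436 had log2 changes of -1.66 and -0.34 inside, and contig 5736 (probe 4142) had 0.10 outside, with contig 6808 (probe 4143) not tested.

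**Figure D3:**
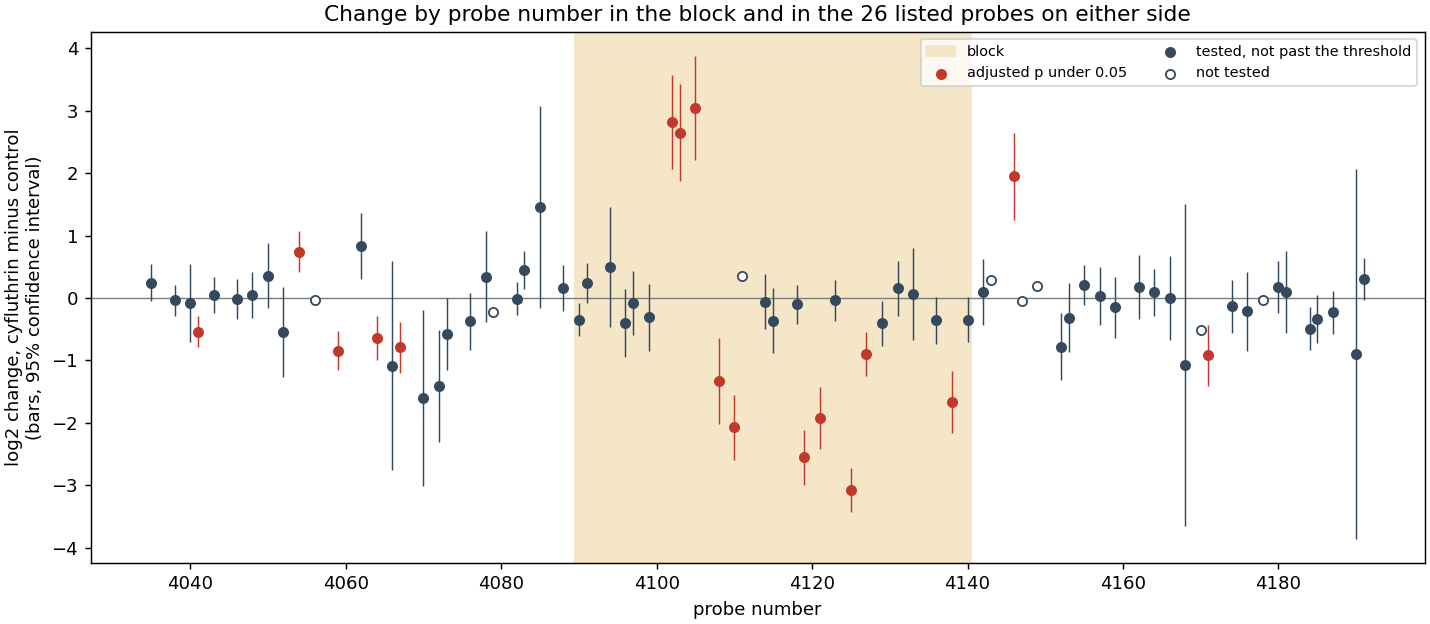
Log2 change, cyfluthrin minus control, against probe number for the block (shaded) and the 26 listed probes on either side, with 95% confidence intervals. In the shaded range, red points lie at 2.65 to 3.04 (3 contigs) and at -3.07 to -0.89 (7 contigs), and the highest red point outside it is contig 8482 (probe 4146) at 1.95.

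The 26 listed probes before the block (4035 to 4088) had 1 higher and 4 lower contigs past the threshold among 24 tested, with a median size of change of 0.495. The 26 after it (4142 to 4191) had 1 higher and 1 lower among 21 tested, with a median size of 0.213. The block's median size of 0.398 lay between these. Consecutive probes of the probe set seldom carried consecutive contigs: 50 of its 3495 adjacent pairs (1.43%) had contig numbers 1 apart, and 3 of the 25 adjacent pairs in the block did, all within the run from contig 2086 to contig 2089.

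Contigs with a number next to one of the block's, but placed elsewhere on the array, were 45, of which 31 were tested. Among these, contig 326 was past the threshold and higher (log2 change 0.49), contig 5483 was past it and lower (-0.74), and 29 were not past it. Contigs 2560 and 2562, on either side of contig 2561, had log2 changes of 0.05 and -0.15. Contig 2085, next to contig 2086, had -0.28. None of these 3 was past the threshold.

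Co-variation was measured as the correlation, over the 16 arrays, of each contig's deviations from its group means, and is a description. All points share the same 16 arrays and each array's scaling. Over the 300 pairs of the 25 tested contigs the median Pearson r was 0.0896, and over all pairs of tested probes it was 0.0381. An r above 0.7 was found for 19 pairs (6.33%), against 2.11% of all pairs of tested probes. Of the 23 tested pairs next to each other in the block's list, 6 had an r above 0.7 and the median r was 0.378. Over the 2748 such pairs of the whole probe set, 9.86% had an r above 0.7 and the median was 0.150. Of the block's 6 such pairs, 2 are within the run of contigs 4735, 4879 and 5659. Correlation with the array's scaling value ran from -0.558 (contig 2087) to 0.209 (contig 7391).

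The higher contigs formed the tightest group. Contigs 4879 and 5659 had an r of 0.967 (Spearman rho 0.894), contigs 4735 and 5659 an r of 0.967 (rho 0.941) and contigs 4735 and 4879 an r of 0.906 (rho 0.788). For contigs 4879 and 5659 the r was 0.976 among cyfluthrin arrays and 0.965 among control arrays, so the ordering of arrays was shared in both groups. Outside the block, the probe most like each of the 3 was contig 4158, with an r of 0.939 (contig 4735), 0.991 (contig 4879) and 0.985 (contig 5659) and a log2 change of 2.71. The numbers of probes outside the block with an r above 0.9 were 6, 8 and 9 for these 3 contigs.

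No tested probe outside the block had an r above 0.9 with contig 2561. That also held for the lower contigs 2087, 2088, 327, 6339 and 6259, and contig 982 had 1 such probe. None had an r above 0.8 with contig 2561 either, and the same held for contig 7391. The other lower contigs had 1 (2087), 2 (2088), 4 (327), 6 (6339), 14 (6259) and 25 (982) probes above 0.8. The 5 most like contig 2561 were contigs 5082 (0.745), 8410 (0.706), 5167 (0.693), 4893 (0.642) and 6179 (0.630). None of these 5 was past the threshold, and their log2 changes were -0.11, -0.16, -0.20, -0.08 and -0.67 in that order. Within the block, contig 2561 had an r of 0.712 with contig 2088. Contigs 2087 and 2088 had an r of 0.752 with each other, contigs 2087 and 327 had 0.750, and contigs 6259 and 6339 had 0.711.

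High correlations were also seen between contigs that were not past the threshold. Contigs 1253 and 2559 had an r of 0.881 (rho 0.835), with 0.920 among cyfluthrin arrays and 0.803 among control arrays, and 0.801 without cyfluthrin 2. Contigs 2086 and 2089 had an r of 0.862 (rho 0.715), with 0.953 among cyfluthrin arrays and 0.281 among control arrays. Over both groups without the 2 arrays farthest from the median of contig 2086's deviations, the r of 0.862 became 0.605. Contig 2559 had 44 probes outside the block with an r above 0.9, the most of any contig here. The lowest r of the block was -0.557, between contig 3211, which was near the background, and contig 6339.

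**Figure D4:**
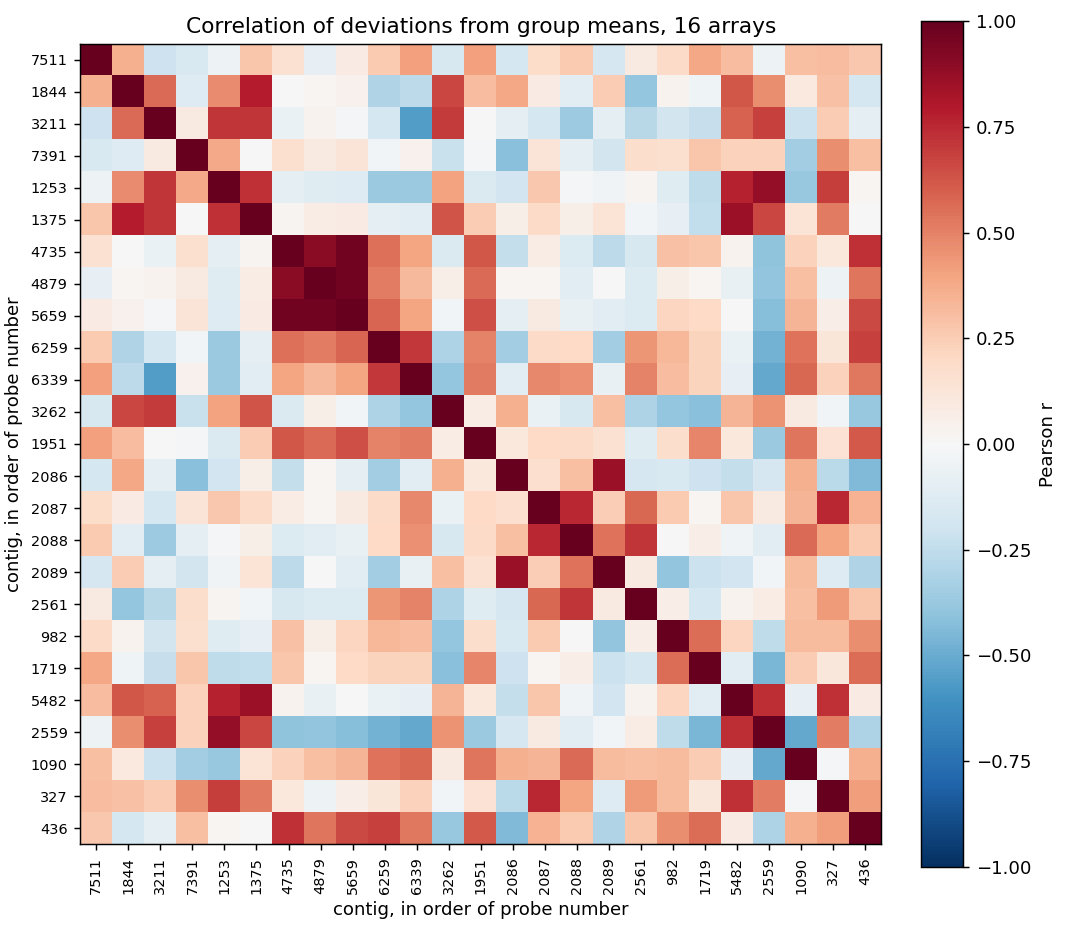
Pearson r of deviations from group means over 16 arrays for the 25 tested contigs, in order of probe number on both axes. The darkest red square off the diagonal is contigs 4735, 4879 and 5659, with r of 0.906 to 0.967, and most of the other squares are pale.

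The arrays lay on 2 slides, each with 4 cyfluthrin and 4 control arrays, and the rule for the block did not use the slide. On slide 1 the cyfluthrin arrays were in row 1 and the control arrays in row 2, and on slide 2 the other way round, so a difference in response between slides and an effect of the row cannot be told apart. Between slides, 1 of the 25 contigs was past the threshold (limma, adjusted over all tested probes), where the share over all tested probes was 3.31%. At an unadjusted p under 0.05 there were 5 of 25 contigs and 1388 of 7245 probes. The 1 was contig 1951 (probe 4115), with a slide 2 minus slide 1 difference of -0.74 ± 0.17 (SE) and an adjusted p of 0.0303 (limma). It averaged -5.02 on slide 2 and -4.16 on slide 1 in cyfluthrin arrays, and -4.54 on slide 2 and -3.91 on slide 1 in control arrays. With normexp, quantile and median scaling its adjusted p in limma was 0.383, 0.139 and 0.0555, so this call depended on the processing.

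Cyfluthrin minus control differences had the same direction on both slides for 21 of the 25 contigs and for all 10 past the threshold. For the 3 higher and 5 lower contigs whose groups did not overlap, no other outcome was possible. The share over all tested probes was not counted, and nothing is read from these counts. Contig 2561 had a log2 change of -2.97 on slide 1 and -3.18 on slide 2, contig 2087 had -2.33 and -2.78, and contig 6339 had -1.90 and -2.24. The size was larger on slide 2 for each. The 3 higher contigs had the larger values on slide 1, where contig 4735 had 3.35, contig 4879 had 3.26 and contig 5659 had 3.71, with 2.28, 2.04 and 2.37 in that order on slide 2. In limma, none of the 25 contigs had a difference in response between slides past the threshold (share over all tested probes 0%), the smallest adjusted p among them was 0.860, and 0 of 25 reached an unadjusted p under 0.05, where 416 of 7245 probes did. For contigs 4735, 4879 and 5659 the unadjusted p in limma was 0.099, 0.076 and 0.052, from 4 arrays per group and slide. A smaller response of the 3 higher contigs on slide 2 was therefore neither shown nor excluded.

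**Figure D5:**
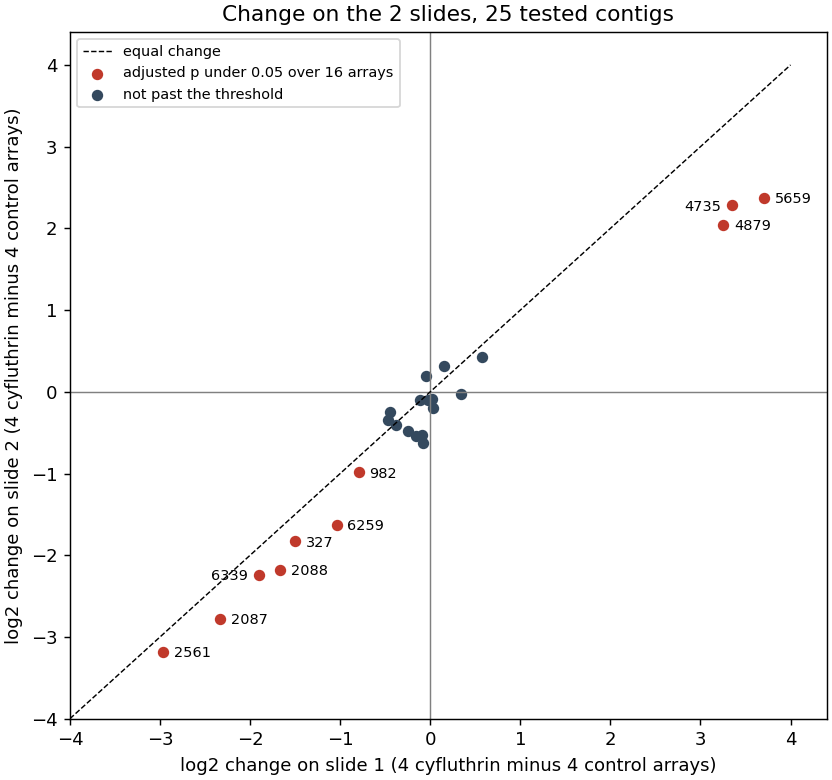
Log2 change, cyfluthrin minus control, on slide 1 (horizontal) and slide 2 (vertical) for the 25 tested contigs, each from 4 and 4 arrays, with the dashed line marking equal change. Contigs 4735, 4879 and 5659 are at the upper right, below the line, at 2.04 to 2.37 on slide 2, and the 7 lower contigs are at the lower left, near the line.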

How the data were processed

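One-colour arrays of 8 cyfluthrin and 8 solvent control samples were analysed, grouped by the treatment given in the labels and numbered as in the titles. Per the file headers, the deposited intensity was made by Agilent Feature Extraction 10.7.1.1 (9.1 per the submitters' processing notes) and is background-subtracted but not normalized between arrays. The authors also deposited log2 values of the same arrays, with the normalization not stated in the sources used here. They correlated at 0.99 or more with quantile-normalized scanner values, and served as an alternative. Of 15744 spots, 536 control spots were left out. The processed intensity was averaged as log2 over a probe's spots, and each array's 75th percentile was subtracted. The filter kept the 7245 of 8507 probes of which 50% or more of the spots exceeded background clearly on 4 or more of the 8 arrays of either group. Groups, slides and their interaction were fitted with limma 3.58.1 in R 4.3.3 (two-sided, Benjamini-Hochberg over all tested probes), after a check on simulated data. The figures were made in Python 3.11.15 with matplotlib 3.10.9. Slides were read from the file headers. The block and its named contigs were chosen with earlier results of these data known. Named contigs were those past the threshold or changed 2-fold, the 5 with the highest mean level, the 5 with the largest spread, those differing between slides, the edges, and the 5 closest pairs and 5 contigs most like contig 2561.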

Additional observations from a re-analysis of the deposited data

Results flagged for a closer look

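In cyfluthrin 2, contig 1844 (probe 4091) had a level of -3.31, apart from the other 7 exposed arrays, of which the nearest was at -2.60. The gap was 0.657 of the whole range of the group, above the 95% critical value of Dixon's test for 8 values. Over the 26 contigs and both groups, 52 sets of 8 values were examined and 1 was past the critical value, where chance gives 2.6 (about 1 in 20).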

How the results depend on the processing

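In the 27 alternatives run (26 for contigs 5659 and 6259), none of the 10 contigs past the threshold changed direction. Of the other 15, 6 did in at least 1 alternative, all with log2 changes of 0.157 or less in size except contig 3211 (0.502 as reported, -0.155 with normexp). Many alternatives could not change a direction. Filters and the slide and replicate blocks leave the log2 change as it is. Where the groups did not overlap, leaving arrays out or taking 1 slide alone cannot reverse it. All 10 contigs past the threshold in the group comparison remained so with normexp on median intensities (chosen after seeing the data), quantile normalization, scaling to the median, the authors' log2 values, no filter, slide as a block and outlier spots left out (added after seeing the data). With normexp the size of the log2 change was smaller for each of the 10, at 2.15 for contig 5659, -1.57 for contig 6339 and -1.46 for contig 2088. No spot of the block was marked as an outlier, so leaving such spots out could act on it only through the other probes. The array-wide split of higher and lower calls moved with scaling: 103 and 257 as reported, 168 and 138 with median scaling, 155 and 211 with quantile normalization and 81 and 286 with normexp, while that of the block stayed at 3 and 7. Keeping probes well above background on all arrays left 8, because contigs 5659 and 6259 were no longer tested. Slide 1 alone gave 6, of which 3 were lower, without 6259, 2088, 982 and 327. Slide 2 alone gave 6, of which 0 were higher in limma, with changes of 2.28, 2.04 and 2.37 for contigs 4735, 4879 and 5659. All 3 had an unadjusted p under 0.05 there. Each slide holds 8 of the 16 arrays. With 1 array left out in turn the count was 9 to 10, contig 6259 being the one lost. Same-numbered control and cyfluthrin arrays shared a slide and a column of it, and correlated at -0.219 to 0.478. The labels state no pairing, and these correlations cannot decide whether there was any. A replicate block gave 10 contigs, 3 higher and 7 lower. Between slides, 1 contig differed as reported and with no filter, and 0 with normexp, quantile normalization and median scaling, where limma gave 6, 4 and 5 contigs at an unadjusted p under 0.05. The response differed between slides past the threshold for 0 contigs as reported and under all 4 alternatives run (0, 2, 1, 0 and 0 at an unadjusted p under 0.05 as reported and with normexp, quantile normalization, median scaling and no filter). The cause was not tested. The median pair r was 0.0680 with quantile normalization, 0.114 without controls 1 and 2 and cyfluthrin 2 and 8, and 0.1235 with Spearman correlation. The planned normexp on mean intensities was not run, because the files hold median intensities. Dim contigs, 6259 and 3211 among them, are limited by their signal over background and, with normexp, by its offset of 50.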
